A study of Homo sapiens with 4 samples.

Results

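The aminoacyl-tRNA synthetases are the enzymes that load amino acids onto tRNA. Their genes were taken by name from a list of 36 genes, and all 36 were found among the 58735 genes of the deposited FPKM values. Of these, 20 encode cytosolic enzymes and 16, with names ending in 2, encode mitochondrial enzymes. The list does not hold every synthetase gene. A mean of at least 1 FPKM over the libraries was reached by 12949 genes of the series, by all 20 cytosolic members and by 15 of the 16 mitochondrial members, SARS2 being the exception.

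RNA was sequenced from the human glioblastoma cell lines U251 and U87, either as Control, which the labels give without any agent, or after 48 h with brusatol (Bru), a plant quassinoid known to inhibit protein synthesis and to lower NRF2. The paper gives the dose as the IC50, a concentration set by how strongly Bru inhibits the cells, and names no value for these libraries. The dose may thus have differed between the lines. There was 1 library for each of the 4 conditions. Each line is a single cultured line, and nothing in the design measures how much 2 cultures of it would differ. A ratio of Bru to Control therefore compares 2 libraries and has no replicate check, and no p-value is given.

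Each synthetase joins 1 amino acid to its tRNAs at the expense of ATP, and the product feeds the ribosome. Cytosol and mitochondria run separate protein synthesis, so most amino acids have an enzyme for each compartment, both encoded in the nucleus. GARS and KARS each supply both compartments from a single gene, and several cytosolic enzymes are held together in the multi-synthetase complex by scaffold proteins. Several cytosolic synthetase genes are known targets of ATF4, the transcription factor of the amino acid and integrated stress responses.

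FPKM, fragments counted per length of gene and per library size, is scaled to gene length, so that levels of different genes can be set side by side. It is relative to the other RNA in a library, so a change in a gene and a change in RNA per cell cannot be told apart. Whole reads could be recovered from the FPKM, and a library held 17083896 to 21453561 reads on genes. The library size inside the FPKM was not this total. Reads on genes were 1.02 and 0.963 times that size in U251 and 1.01 and 0.981 times in U87, Control first. Scaling by reads on genes would raise the ratios of Bru to Control in both lines, more so in U251, and was not tried. The glial and mesenchymal marker VIM lay at 606 to 701 FPKM in all 4 libraries, whereas GFAP reached at most 2.42 and SOX2 was at 129 in U251 Control and at 0 in U87 Control. The leukocyte marker PTPRC and the oligodendrocyte marker MOG were at or below 0.0156 FPKM, KRT18 was the highest of the markers for other cells at 14.3 in U251 Bru, and the part of any other cell type in the results was not tested.

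Cytosolic synthetases were the more abundant set in every library. The summed FPKM of the 20 cytosolic genes was 691 in Control and 834 with Bru in U251, and 757 and 772 in U87. The 16 mitochondrial genes summed to 171, 194, 157 and 164 FPKM in the same order. The cytosolic sum was thus 4.05, 4.30, 4.81 and 4.71 times the mitochondrial sum. The median level of a cytosolic gene lay between 29.5 and 39.5 FPKM, and that of a mitochondrial gene between 6.80 and 9.29 FPKM. In reads, cytosolic synthetases took 0.338% to 0.420% of a library and mitochondrial synthetases 0.0756% to 0.0901%.

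The order of the levels differed between the lines. AARS, the alanyl enzyme, led in U251 with 74.9 FPKM in Control and 83.2 with Bru, and had 42.6 and 34.6 in U87. NARS, the asparaginyl enzyme, led in U87 with 88.5 FPKM in Control and 92.1 with Bru, and had 24.2 and 32.5 in U251. The leading gene of either line thus did not lead in the other. CARS, the cysteinyl enzyme, was the lowest cytosolic gene in all 4 libraries, at 6.91, 7.76, 9.11 and 8.79 FPKM. Among the mitochondrial genes IARS2, for isoleucine, stood above the rest everywhere, with 54.6 and 47.2 FPKM in U251, against 32.7 and 30.5 in U87. The next mitochondrial gene was VARS2 at 14.4 in U251 Control, HARS2 at 18.9 in U251 Bru, and CARS2 at 20.7 and 23.6 in the U87 libraries. SARS2, for serine, was the lowest in all 4, with 81, 55, 38 and 63 reads and 1.20, 0.918, 0.651 and 1.12 FPKM. Of its exon bases 57.0% lie in other genes, which may affect this level.

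**Figure D1:**
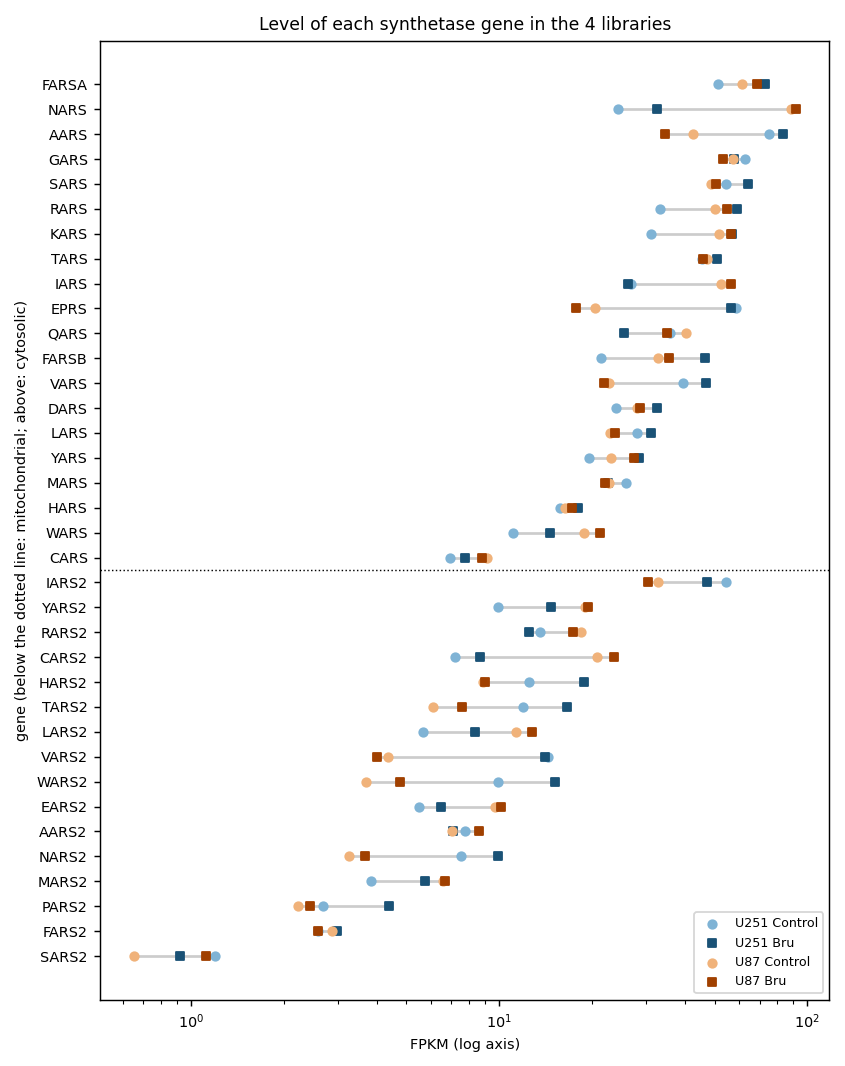
FPKM (log axis) of the 36 synthetase genes in the 4 libraries, 1 point per library, with cytosolic genes above the dotted line and mitochondrial genes below it. IARS2, at 30.5 to 54.6 FPKM, is the highest mitochondrial gene in every library, and SARS2, at 0.651 to 1.20 FPKM, the lowest.

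In U251, Bru went with higher levels of most synthetases of both compartments. Over the 35 members with a mean of at least 1 FPKM, the median log2 ratio of Bru to Control was 0.25, against -0.03 over all 12949 genes, and 26 were above 0, against 47.2% of all genes. A log2 ratio above 0.5 was found for 10 of the 35, against 14.3% of all genes, and a ratio below -0.5 for 1, against 19.1%. Above 1 there was only FARSB, against 3.36% of all genes, and none lay below -1, against 5.44%. These ratios are on FPKM + 0.1, and each interval given is a 95% counting interval of the reads, without the added constant. By that interval 25 members were above 0 and 5 below, against 30.9% and 35.9% of all genes. The interval is narrower for genes with more reads, and members and all genes were not matched for reads.

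The 20 cytosolic genes in U251 had a median log2 ratio of 0.21, with 15 above 0, against 47.2% of all genes. Of them 4 were above 0.5, against 14.3%, and 1 was below -0.5, against 19.1%. The number above 0.5 was thus near the share of all genes. The highest ratio belonged to FARSB, the beta subunit of the phenylalanyl enzyme (ENSG00000116120, chr2:222570536-222656337 in GRCh38, minus strand). FARSB measured 21.4 FPKM in Control and 46.5 with Bru, a log2 ratio of 1.11 (interval 1.03 to 1.21). Its partner FARSA, the alpha subunit, measured 51.5 and 72.6 FPKM, a ratio of 0.50 (0.42 to 0.57) that lay just under the limit. The subunits of this enzyme thus came closer in level with Bru, and the interval of FARSB lay wholly above that of FARSA.

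KARS and RARS followed. KARS, the lysyl enzyme of both compartments (ENSG00000065427, chr16:75627474-75648643, minus strand), measured 31.0 FPKM in Control and 56.9 with Bru, a log2 ratio of 0.87 (0.81 to 0.95). RARS, the arginyl enzyme (ENSG00000113643, chr5:168486445-168519299, plus strand), measured 33.3 and 59.2 FPKM, a ratio of 0.83 (0.76 to 0.91). YARS, the tyrosyl enzyme, measured 19.5 and 28.5 FPKM, a ratio of 0.54 (0.48 to 0.61). GARS, the glycyl enzyme that also serves both compartments, did not share the direction of KARS, with 62.7 FPKM in U251 Control, 57.8 in U251 Bru and a ratio of -0.12 (-0.17 to -0.06).

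At the other end stood QARS, the glutaminyl enzyme (ENSG00000172053, chr3:49095932-49105135, minus strand). QARS measured 35.9 FPKM in Control and 25.3 with Bru, a log2 ratio of -0.50 (-0.58 to -0.43), just past the limit and inside it when the values were rescaled to TPM. MARS, the methionyl enzyme, measured 25.7 and 22.5 FPKM, a ratio of -0.19 (-0.26 to -0.12). EPRS, the fused glutamyl and prolyl enzyme, measured 58.8 and 56.5 FPKM, a ratio of -0.06 (-0.11 to -0.01) that ranged from -0.08 to 0.03 over the scalings tried, so its direction was not fixed. All 3 of these sit in the multi-synthetase complex, as do KARS and RARS, so its 8 enzymes spread from -0.50 to 0.87 with a median of 0.06. The 12 cytosolic enzymes outside the complex had a median of 0.24, with 11 above 0, against 47.2% of all genes, and GARS below.

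The remaining cytosolic genes in U251 lay between these ends. DARS for aspartate, NARS and WARS for tryptophan had log2 ratios of 0.44, 0.42 and 0.39. VARS for valine, SARS for serine, HARS for histidine, CARS, TARS for threonine, AARS and LARS for leucine ran from 0.25 down to 0.15, all with intervals above 0. IARS, the isoleucyl enzyme, measured 26.9 FPKM in Control and 26.3 with Bru, a ratio of -0.03 (-0.10 to 0.03) within counting error of 0. WARS went from 11.1 to 14.6 FPKM.

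The 15 mitochondrial genes tested in U251 had a median log2 ratio of 0.39, with 11 above 0, against 47.2% of all genes. Of them 6 were above 0.5, against 14.3%, and 0 below -0.5, against 19.1%. PARS2, the prolyl enzyme, measured 2.68 FPKM in Control and 4.39 with Bru, a ratio of 0.69 that rests on 132 and 191 reads (0.38 to 1.04). WARS2, for tryptophan, measured 9.94 and 15.2 FPKM, a ratio of 0.61 (0.48 to 0.75). HARS2, for histidine, measured 12.5 and 18.9 FPKM, a ratio of 0.60 (0.48 to 0.72). MARS2, YARS2 and LARS2, for methionine, tyrosine and leucine, completed the 6 with ratios of 0.57, 0.57 and 0.55, and TARS2, for threonine, was next at 0.48. In FPKM MARS2 went from 3.84 to 5.75, YARS2 from 9.90 to 14.8 and TARS2 from 11.9 to 16.6.

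A few mitochondrial genes were lower with Bru in U251. IARS2, the most abundant of them, measured 54.6 FPKM in Control and 47.2 with Bru, a log2 ratio of -0.21 (-0.27 to -0.15), and it was the only mitochondrial gene with an interval below 0. AARS2 for alanine, RARS2 for arginine and VARS2 for valine had ratios of -0.12, -0.12 and -0.03, each with an interval that held 0, and the ratio of VARS2 changed sign with the scaling. In FPKM AARS2 went from 7.72 to 7.08, RARS2 from 13.6 to 12.5 and VARS2 from 14.4 to 14.1. NARS2, CARS2, EARS2 and FARS2, for asparagine, cysteine, glutamate and phenylalanine, ran from 0.39 down to 0.20, the interval of FARS2 alone holding 0. The summed mitochondrial level, to which IARS2 gives 54.6 of 171 FPKM in U251 Control, had a log2 ratio of 0.18, lower than the 0.27 of the cytosolic sum, although the median gene was higher in the mitochondrial set. The cytosolic median minus the mitochondrial median was -0.17 in U251, within ranges that overlapped widely (-0.50 to 1.11 cytosolic and -0.21 to 0.69 mitochondrial).

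**Figure D2:**
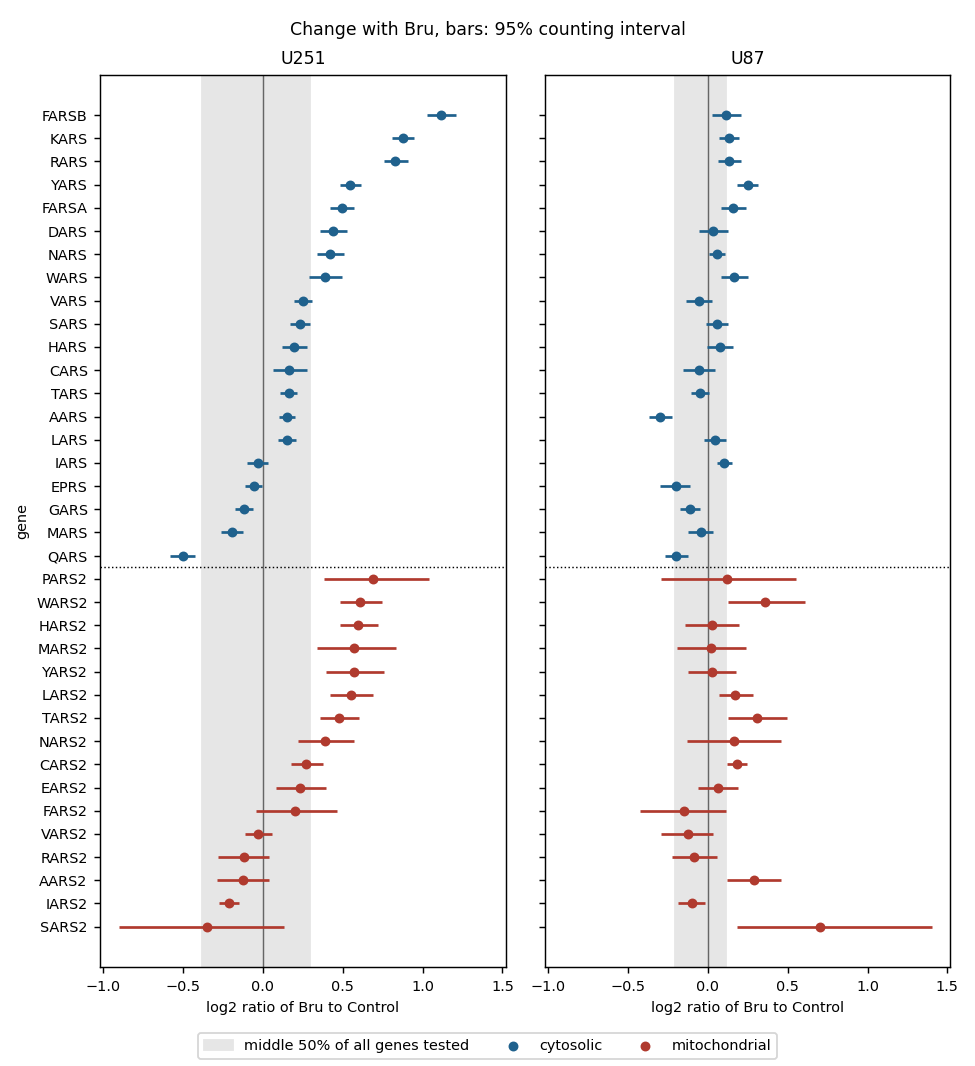
Log2 ratio of Bru to Control for each of the 36 genes in U251 (left) and U87 (right), with 95% counting intervals as bars and the middle 50% of all genes tested as a grey band. In U251 the points reach from -0.50 (QARS) to 1.11 (FARSB), and in U87 all but SARS2 lie between -0.30 and 0.36.

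In U87 the same genes moved little. Over the 35 members the median log2 ratio was 0.06, against -0.04 over all genes, and 23 were above 0, against 42.3% of all genes. None exceeded 0.5, against 5.75% of all genes, and none was below -0.5, against 6.46%. All members are protein-coding, and of the 10851 protein-coding genes tested only 217 were above 0.5 and 547 below -0.5. Few or no members past these limits would thus be usual for genes of this kind. The range was -0.30 to 0.36. By the counting interval 13 members were above 0 and 5 below, against 15.7% and 28% of all genes, again not matched for reads. Over all genes 66.3% lay within 0.25 of 0 in U87, compared with 38.5% in U251, so the narrower spread was not limited to the synthetases. The cytosolic median was 0.05 and the mitochondrial median 0.06, a difference of -0.01.

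The highest cytosolic genes in U87 were YARS at 23.0 FPKM in Control and 27.4 with Bru, a log2 ratio of 0.25 (0.18 to 0.32), and WARS at 18.9 and 21.2 FPKM, a ratio of 0.17 (0.08 to 0.25). FARSA, KARS and RARS measured 61.3, 51.5 and 50.05 FPKM in Control and 68.6, 56.4 and 55.0 with Bru, ratios of 0.16, 0.13 and 0.13 with intervals above 0. Reads of these genes were thus higher with Bru in both lines, in U87 by a small amount. At the low end AARS measured 42.6 and 34.6 FPKM, a ratio of -0.30 (-0.37 to -0.22). EPRS measured 20.4 and 17.8 FPKM, a ratio of -0.20 (-0.30 to -0.11). QARS, low in U251 too, measured 40.3 and 35.1 FPKM, a ratio of -0.20 (-0.27 to -0.13), and GARS measured 57.5 and 53.3 FPKM, a ratio of -0.11 (-0.17 to -0.05). MARS, below in U251, measured 22.8 and 22.1 FPKM, within counting error.

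Of the mitochondrial genes in U87, WARS2 had the highest ratio among those tested, with 3.70 FPKM in Control, 4.76 with Bru and a log2 ratio of 0.36 (0.12 to 0.61). TARS2 measured 6.11 and 7.58 FPKM, a ratio of 0.31 (0.13 to 0.50). AARS2 measured 7.02 and 8.58 FPKM, a ratio of 0.29 (0.12 to 0.46), whereas in U251 it had been 7.72 and 7.08. WARS2 and TARS2 were thus higher with Bru in both lines, and AARS2 in U87 only. CARS2 and LARS2, at 0.18 and 0.17, were the other two with an interval above 0. IARS2 was again lower, with a ratio of -0.10 (-0.18 to -0.02), and FARS2, VARS2 and RARS2, at -0.15, -0.12 and -0.08, had intervals that held 0. In FPKM FARS2 went from 2.87 to 2.58, VARS2 from 4.37 to 3.999 and RARS2 from 18.4 to 17.4. In U251, FARS2 had gone from 2.57 to 2.98 and CARS2 from 7.18 to 8.69.

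The response of a gene in U87 minus its response in U251 gives how far the ratios of the lines differed. The dose of Bru may have differed between the lines as well, so line and dose cannot be told apart. This difference was above 0 for 7 of the 35 members, against 49.1% of all genes, with a median of -0.22 against -0.01 over all genes. It was below -0.5 for 7 members, against 13.7% of all genes, and above 0.5 for 0, against 15.5%. The 7 were FARSB at -0.998 (-1.13 to -0.88), KARS at -0.74 (-0.84 to -0.65), RARS at -0.69 (-0.80 to -0.59) and the mitochondrial HARS2, PARS2, MARS2 and YARS2 at -0.57, -0.57, -0.55 and -0.55. These are mostly the genes with the highest ratios in U251, and the subtraction uses the same U251 values. In U87, FARSB went from 32.8 to 35.6 FPKM, HARS2 from 8.84 to 9.01, PARS2 from 2.22 to 2.42, MARS2 from 6.58 to 6.68 and YARS2 from 19.0 to 19.4. AARS showed opposite signs, 0.15 in U251 and -0.30 in U87, with a difference of -0.45 (-0.54 to -0.36). AARS2 showed the reverse order, -0.12 and 0.29, with a difference of 0.41 (0.19 to 0.65).

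Untreated cells of the lines differed in some synthetases, though in a smaller share of the members than of all genes. The log2 ratio of U87 Control to U251 Control was above 1 for 2 of the 35 members, against 14.5% of all genes. It was below -1 for 4, against 16% of all genes. NARS, at 24.2 FPKM in U251 and 88.5 in U87, had a ratio of 1.86, and CARS2, at 7.18 and 20.7 FPKM, had 1.52. VARS2, at 14.4 and 4.37 FPKM, had -1.70, and EPRS, at 58.8 and 20.4 FPKM, had -1.52. WARS2 and NARS2 followed at -1.40 and -1.18, so the asparaginyl enzymes of cytosol and mitochondria differed between the lines in opposite directions. FARSB, KARS and RARS were higher in U87 Control than in U251 Control, by 0.61, 0.73 and 0.59 on the log2 scale. With Bru in both lines the same ratios were -0.39, -0.01 and -0.11. These comparisons use the same libraries as the responses to Bru and are not separate evidence.

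Setting each cytosolic gene beside the mitochondrial gene for the same amino acid gave 17 pairs, EPRS being paired with both EARS2 and PARS2, and FARS2 with both FARSA and FARSB. The cytosolic gene was the higher of the pair in 15 pairs in U251 Control, 13 in U251 Bru, and 16 in each U87 library. The median log2 ratio of cytosolic to mitochondrial level lay between 1.89 (U251 Bru) and 2.32 (U87 Control). SARS over SARS2 was the widest pair, with 42.2, 63.1, 64.7 and 41.5 times more FPKM for the cytosolic gene. However, SARS2 rests on few reads, and 57.0% of its exon bases lie in other genes, which may affect its level. A few pairs ran the other way. CARS2 exceeded CARS in all 4 libraries, with log2 ratios of cytosolic to mitochondrial level of -0.05 and -0.16 in U251 and -1.18 and -1.41 in U87. IARS2 exceeded IARS in U251, at -1.02 and -0.84, but not in U87, at 0.68 and 0.89. HARS and WARS, above their partners in U251 Control at 0.33 and 0.16, lay just below them in U251 Bru at -0.07 and -0.06.

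Bru moved the pairs in both directions. In U251 the cytosolic to mitochondrial log2 ratio was higher with Bru in 8 pairs and lower in 9, with a median change of -0.03. RARS over RARS2 had the largest gain, from 1.29 to 2.24, a change of 0.95 (0.78 to 1.12), since RARS was higher and RARS2 was not. FARSB over FARS2 gained 0.91 (0.64 to 1.17). MARS over MARS2 went the other way, from 2.71 to 1.95, a change of -0.77 (-1.03 to -0.53), and EPRS over PARS2 changed by -0.75 (-1.09 to -0.45). The cytosolic and mitochondrial enzymes for arginine and for methionine thus shifted against each other in opposite senses.

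In U87 the ratio was higher in 7 pairs and lower in 10, with a median change of -0.10. SARS over SARS2 changed by -0.64 (-1.31 to -0.14), with the low reads and the exon overlap named above. AARS over AARS2 changed by -0.58 (-0.77 to -0.41), AARS being lower with Bru and AARS2 higher, and in U251 it had changed by 0.27 (0.11 to 0.44). TARS over TARS2 changed by -0.35 (-0.55 to -0.17) in U87 and by -0.31 (-0.45 to -0.19) in U251, the same direction in both lines. EPRS over PARS2 changed by -0.33 (-0.75 to 0.09), an interval that held 0.

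**Figure D3:**
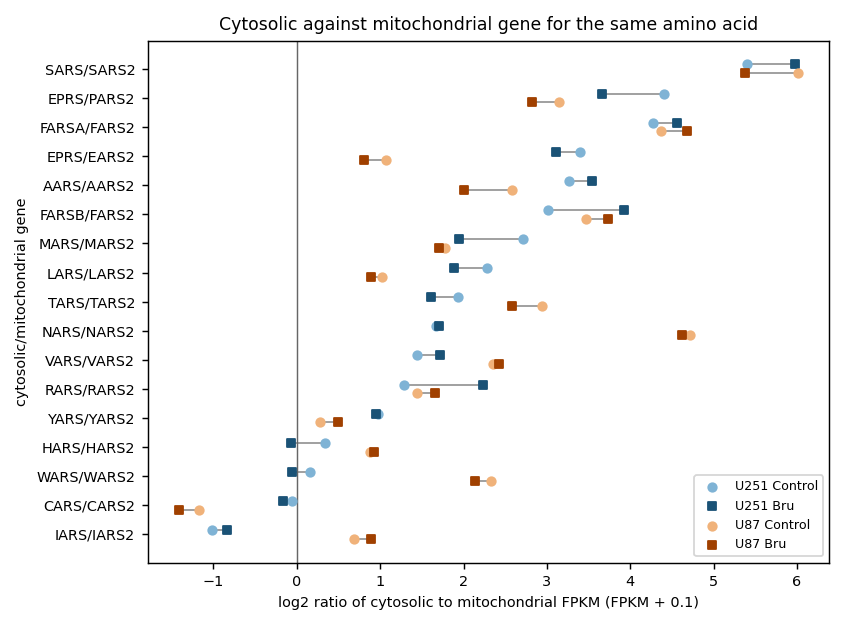
Log2 ratio of cytosolic to mitochondrial FPKM (FPKM + 0.1) for the 17 pairs, with Control and Bru of each line joined by a grey line. Most pairs lie right of 0, CARS/CARS2 lies left of it in all 4 libraries, and RARS/RARS2 and MARS/MARS2 move in opposite directions in U251.

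Some members share exon sequence with neighbouring genes. The kit used was NEB Next Ultra, and whether the counting used strand was not given in the sources used here. SARS2 had 57.0% of its exon bases inside other genes, VARS2 21.99%, HARS2 15.8%, MARS 13.3% and WARS 10.6%, and these 5 were the members above 10%. HARS2 and HARS lie head to head on opposite strands of chromosome 5 and overlap by 437 bases, and in U251 their log2 ratios were 0.60 and 0.20. MARS overlaps the stress response gene DDIT3 by 355 bases on the opposite strand, and MARS was lower in U251 Bru while DDIT3 was higher. SARS2 and VARS2 share 1492 and 1858 bases with a gene on the same strand. EEF1G, which is not a member, has 99.9% of its exon bases in a gene on the same strand. It is listed at 0 in all 4 libraries. If reads in such bases were left out for SARS2 and VARS2 as well, their FPKM is too low. For HARS2, MARS and WARS, reads in shared bases may belong to the neighbour or may be missing. Their FPKM may thus be too high or too low, and none of this was tested.

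Shorter synthetase genes tended to have higher ratios in U251. Across the 35 members, Spearman's rho between gene length and this ratio came to -0.46 for U251 and -0.09 for U87, compared with -0.11 in each line over all genes tested. These are correlations across genes of the same libraries, which are not independent replicates. The 11 members of 2000 to 4000 bases had a median of 0.57 in U251, whereas the 3193 genes of that length had 0.03. The 11 were the cytosolic FARSA, FARSB, RARS and SARS and the mitochondrial HARS2, MARS2, NARS2, PARS2, RARS2, WARS2 and YARS2. Most of this class was thus mitochondrial, and length and compartment were not tested apart. For the 13 members of 4000 to 6000 bases the median was 0.16 and for all genes of that length -0.04. The 6 members of 6000 to 8000 bases had 0.22, and all genes of that length -0.09. The 5 members longer than 8000 bases had 0.17, and all genes of that length -0.09. The difference thus lay between the shortest class and the rest, with no further fall beyond 4000 bases. In U251 the members' median was above that of all genes in each length class that held members.

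Promoter sequence was looked at because ATF4 was higher with Bru in both lines. RefSeq promoters on GRCh38.p14, read here over the 250 bases before the gene start, were matched for 30 of the 36 members. The C/EBP-ATF response element, searched on both strands as TGATGNAA, was found in 3 of the 30, in 3.14% of all 35116 promoters and in 1.31% of those of the genes tested. The following 30 bases of each hold the match in capitals and read 5′ to 3′ on the strand of the gene, at chr16:70289675-70289704 for AARS, chr9:92293698-92293727 for IARS and chr12:32756076-32756105 for YARS2, all on the minus strand.

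AARS: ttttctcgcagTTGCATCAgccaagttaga

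IARS: cccgcattttcagcgcgTTGCATCAcctcc

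YARS2: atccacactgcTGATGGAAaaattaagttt

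The matches lay 187, 13 and 197 bases before the RefSeq start of AARS, IARS and YARS2. RefSeq starts can differ from the GENCODE gene bounds used for the other coordinates, and by those bounds the stretch of IARS lies inside the gene. The 3 genes shared no direction, with log2 ratios of 0.15, -0.03 and 0.57 in U251 and of -0.30, 0.10 and 0.03 in U87.

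The ETS motif, searched as CCGGAAGT on both strands, was found in 7 of the 30 members, in 3.42% of all promoters and in 7.82% of those of the genes tested. The 7 were CARS, HARS, NARS, WARS, EARS2, HARS2 and PARS2. The windows of HARS and HARS2 overlap, and the same matches were counted for both genes, so the 7 are not all separate promoters. Those of the head-to-head genes HARS and HARS2 and of PARS2, the mitochondrial gene with the highest ratio in U251, are shown with the match in capitals, at chr5:140691436-140691465 (minus strand), chr5:140691361-140691390 (plus strand) and chr1:54764722-54764751 (minus strand).

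HARS: ccagcttcggcACTTCCGGgaggagccgga

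HARS2: cagcaaggatgACTTCCGGctatcgagtcg

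PARS2: tcctagaaagtACTTCCGGaacggtgattt

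By the GENCODE bounds the stretch of HARS lies inside the gene and those of HARS2 and PARS2 outside. The 7 genes had log2 ratios from 0.17 (CARS) to 0.69 (PARS2) in U251 and from -0.05 (CARS) to 0.17 (WARS) in U87. All 7 were above 0 in U251, as were 26 of the 35 members and 47.2% of all genes, and nothing is read from the count. The NRF1 motif, searched as GCGCA, any base, then GCGC, was in 4 members (SARS, TARS, IARS2 and MARS2) and in 11.4% of the promoters of genes tested, and the E-box CACGTG in 3 (IARS, EARS2 and MARS2) and in 9.08%. A match describes letters and does not show that a factor bound there.

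Proteins that work with the synthetases were read from lists of their own. The scaffold proteins of the multi-synthetase complex were all higher in U251 Bru. AIMP2, which holds the complex together, measured 14.5 FPKM without and 32.8 with Bru in U251, a log2 ratio of 1.17 (1.03 to 1.32), and 19.0 and 19.5 in U87, although 28.9% of its exon bases lie in other genes. AIMP1 measured 16.7 and 24.4 FPKM in U251, a ratio of 0.54, and EEF1E1 measured 7.72 and 11.3, a ratio of 0.55. Of the exon bases of AIMP1 and EEF1E1, 11.6% and 18.7% lie in other genes, and the effect of this was not tested. In U87 the median of the 3 scaffold genes was 0.04. The 3 scaffold genes thus lay past 0.5 in U251, while of the 8 enzymes of the complex KARS and RARS did, against 14.3% of all genes.

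Mitochondria make glutaminyl-tRNA with an amidotransferase in place of a glutaminyl enzyme. Its subunits GATB, QRSL1 and GATC had log2 ratios of 1.19, 0.70 and 0.44 in U251 and of 0.39, 0.34 and 0.25 in U87. In FPKM GATB went from 1.08 to 2.60 in U251 and from 4.21 to 5.54 in U87. QRSL1 went from 5.18 to 8.49 and from 7.31 to 9.28 FPKM. GATC has 47.6% of its exon bases in other genes, most of them in SRSF9, and GATB has 11.96%, and the part of reads from these neighbours was not tested. All 3 intervals lay above 0 in both lines, whereas the cytosolic glutaminyl enzyme QARS was lower in both. MTFMT, which formylates the mitochondrial initiator tRNA, had 0.25 and -0.08.

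The factors that carry and export charged tRNA, of which 7 of 8 passed the filter, had a median of 0.17 in U251 and a median of 0.11 in U87. EEF1A1, which brings charged tRNA to the ribosome, had 0.48 and 0.11, its mitochondrial counterpart TUFM 0.31 and 0.20, and EEF1D, of the exchange factor for EEF1A1, 0.17 and 0.35. EEF1A2, the only gene of this list past 0.5 in U87, had 4 and 22 reads there. EEF1G is listed at 0 in all 4 libraries, and 99.9% of its exon bases lie in another gene. Enzymes of tRNA maturation had a median of 0.35 in U251 over the 27 of 29 that passed, with 8 above 0.5 and 0 below -0.5, against 14.3% and 19.1% of all genes. In U87 the median was -0.02, with 0 above 0.5 and 1 below -0.5, against 5.75% and 6.46%. RPP40, a subunit of RNase P, had 1.07 and 0.24, TRIT1, which modifies the anticodon loop, 0.81 and -0.33, and RPP14, another subunit of RNase P, 0.75 and 0.36. MTO1, which modifies mitochondrial tRNA, had 0.79 and 0.18. Other subunits of RNase P, POP1 and POP7, had -0.38 and -0.11 in U251, and TSEN34 and TSEN54, which splice tRNA, had -0.31 and -0.25. Of 4 editing factors the 2 that passed, DTD1 and DTD2, had -0.01 and -0.12 in U251 and -0.18 and -0.13 in U87. PSTK and SEPSECS, which make selenocysteinyl-tRNA, had 0.29 and 0.48 in U251 and 0.11 and 0.06 in U87.

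The stress response genes did not move as 1 group. Of the 10 that passed the filter, 4 were above 0.5 and 3 below -0.5 in U251, against 14.3% and 19.1% of all genes. In U87, 5 were above 0.5 and 0 below -0.5, against 5.75% and 6.46%, and the medians were 0.00 and 0.49. ATF4 went from 109 to 168 FPKM in U251 and from 39.4 to 61.1 in U87, with a log2 ratio of 0.63 in each line. DDIT3, the factor also called CHOP, had 1.91 and 0.85, and PPP1R15A, which restores eIF2 activity, had 1.25 and 0.56. ATF3, a factor of the same response, had 0.20 in U251 and 1.54 in U87. CHAC1, TRIB3 and VLDLR, further genes of this list, were at -0.60, -0.19 and -0.79 in U251 and at 0.07, -0.26 and -0.10 in U87. Of all 10, 5 were above 0 in U251 and 7 in U87, against 47.2% and 42.3% of all genes. The activity of ATF4 was not tested. In U87 the median of this list was above that of the cytosolic synthetases (0.05), and in U251 below it (0.21).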

How the data were processed

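RNA was measured by RNA-seq in 4 libraries, U251 and U87, each as Control and after Bru. The authors deposited FPKM per gene with gene lengths in bases. Per the labels, the submitters' processing notes name HISAT2 2.0.5, StringTie 1.3.3b, featureCounts 1.5.0-p3, DESeq2 1.16.1 and build hg18. However, coordinates and merged exon lengths of all 58735 genes equal those of GENCODE release 29 on GRCh38, so GRCh38 is given here. The strand setting of the counting is not given in the sources used here.

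FPKM times length was a whole multiple of a library's step within 0.001 reads for 100% of the values, which gave the reads. The log2 ratios used FPKM + 0.1, and all genes whose mean FPKM reached 1 served as background. Counting intervals are exact Clopper-Pearson intervals (95%) of the share of reads in the Bru library. Those of differences between lines and between pairs are approximate (1.96 standard errors). They cover counting error only. The depth of 17083896 to 21453561 reads puts 3 reads of a 1 kilobase gene at 0.143 to 0.172 FPKM. A count model was not used, since each condition has 1 library.

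The members and lists were chosen with earlier results of these data known. Genes with full values were those with the 4 highest and 4 lowest ratios per line and kind, the highest and lowest levels, GARS and KARS, members that differed by over 0.5 between lines, and the 4 pairs per line with the largest change. The promoter sequences shown, the FPKM of IARS in U251 and DDIT3 beside MARS were chosen after values were seen. Scripts, tested on simulated data, used Python 3.11.15, numpy 2.4.6, pandas 2.3.3, scipy 1.17.1 and matplotlib 3.10.9.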

Additional observations from a re-analysis of the deposited data

Results flagged for a closer look

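SARS2, the mitochondrial seryl enzyme, moved in opposite directions in the lines, and the difference was not tested. It measured 1.20 FPKM in Control and 0.918 with Bru in U251, a log2 ratio of -0.35 with a counting interval of -0.90 to 0.13, and 0.651 and 1.12 FPKM in U87, a ratio of 0.70 with an interval of 0.18 to 1.40. These rest on 38 to 81 reads per library, its mean FPKM was below 1, and 57.0% of its exon bases lie in other genes.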

How the results depend on the processing

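The results were recomputed under 10 alternatives, which gave 252 values. Of these, 236 stayed within 1.5 times (counts) or within the median counting error (medians), 16 moved and 0 reversed. Some of the 236 could hardly change or not at all. The cytosolic minus mitochondrial median in U251 was -0.17 under every rescaling. The pairs were unfiltered in the main run, so the setting without a filter repeated them. All cytosolic genes passed each filter on FPKM, so their values repeated. A count cannot change sign, so nothing is read from the 0 reversed for counts. In U251 the number of cytosolic genes below -0.5 was 0 with a pseudocount of 1, after rescaling to a median of 0 or to the 75th percentile, and as TPM. With a pseudocount of 1 the mitochondrial genes above 0.5 in U251 were 4 and not 6, since LARS2 and MARS2 fell below. That change is just within the limit of 1.5 times. Rescaling to the 75th percentile gave a cytosolic median of 0.30 with 7 genes above 0.5 and a mitochondrial median of 0.47. Without a filter, SARS2 made 1 mitochondrial gene above 0.5 in U87 and 1 gene with a difference between lines above 0.5. The median log2 ratio of the pairs was 1.78 for U251 Bru and 2.08 and 1.90 for U87, Control first, with a pseudocount of 1, and 1.45 and 1.71 for U251 and 1.44 and 1.66 for U87, Control first, with a mean FPKM of at least 5. EPRS, IARS and VARS2 in U251 and CARS, MARS, TARS and VARS in U87 changed sign with the scaling. Leaving out the 5 members with over 10% of their exon bases in other genes was an alternative chosen after seeing the data, and it kept its values within these limits. No paired analysis was possible because each condition has 1 library, and no difference between cultures could be measured.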
